A study of Mus musculus with 2 samples.

Results

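The 8 genes described here encode the FGF receptors Fgfr1, Fgfr2 and Fgfr3 and the kinases that carry the signal below them, Araf, Braf, Map2k1, Map2k2 and Mapk3. They were listed by name as members of 1 signalling chain, and they are 8 of the 42422 genes in the count table. All 8 passed the filter on low counts, which 15252 genes passed. The libraries hold RNA of sorted germ cells of mouse foetal gonads, collected at E12.5, the stage at which XY and XX germ cells begin to diverge. There were 40 libraries, in 10 groups of 4. XX and XY germ cells were taken at once (0 h) or after organ culture for 24 h or 72 h in the vehicle DMSO, and XY germ cells also after 24 h or 72 h with an inhibitor. The inhibitors were BGJ398, also called Infigratinib, which blocks FGF receptors (FGFRi), and PD0325901, also called Mirdametinib, which blocks MEK1/2 (MEKi), each at 500 nM. XX germ cells received no inhibitor.

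All groups came from the same cross, in which Swiss females were mated with inbred 129T2svJ males carrying an Oct4-eGFP germ cell reporter. The gonads of several embryos were pooled for each library and the mesonephros stayed attached during culture and was cut away before the cells were sorted, so a library is a pool of animals and the inhibitors reached the somatic cells too. The germ cells were gated on the reporter, which sets what was called a germ cell. Nothing in the labels ties the libraries of a group to separate litters or culture days, so the tests measure the spread between libraries only. In such bulk samples, fewer cells of a type and less RNA per cell cannot be told apart.

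FGFs are secreted ligands that bind receptor tyrosine kinases at the cell surface, and an active receptor loads RAS with GTP. RAS recruits RAF kinases, which phosphorylate MEK1 and MEK2, which in turn phosphorylate the ERK kinases. In the foetal testis FGF9 from Sertoli cells supports Sertoli cell fate. It is also thought to promote male germ cell development, although the paper calls the evidence for a direct role limited. The inhibitors act on the proteins, whereas the values below are levels of mRNA.

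Levels are given as CPM (counts scaled to a common library total) adjusted by scaling factors and not divided by gene length, since each count is a molecule tagged at its poly(A) end. Levels were compared between groups, and genes of a family were set beside each other only as shares of their counts within a library. A mean is followed by its SD over the 4 libraries of a group. A gene was called where limma's treat test against a fold of 1.5 gave a false discovery rate (FDR) under 0.05 over all 15252 genes, and log2 fold changes are given with their standard error (SE). The libraries held 1178953 to 5199153 counts. They were made in 2 pools of 20, with XX and XY 0 h, both 24 h DMSO groups and XY 24 h MEKi in pool 1, and with XY 24 h FGFRi and all 72 h groups in pool 2. The effect of FGFRi at 24 h, and any change from 0 h to 72 h, cannot be told apart from the difference between the pools.

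The 6 germ cell markers (Dazl, Ddx4, Dppa3, Kit, Mael and Pou5f1) summed to group means of 2261 to 4952 CPM, with none at 0 in any group. The 37 markers of other gonadal, vascular, blood and mesonephric cells summed to group means of 134 to 418 CPM. Of these, 24 passed the filter on low counts. With 72 h MEKi 4 of the 24 were called, against 9.12% of all genes, and Aard and Irx3 were higher and Cdh5 and Pax8 were lower. The part of these markers in the results below was not tested. Among the 37, Fgf9 and Irx3 may also be made by germ cells, and the paper lists Irx3 with female germline markers.

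**Figure D1:**
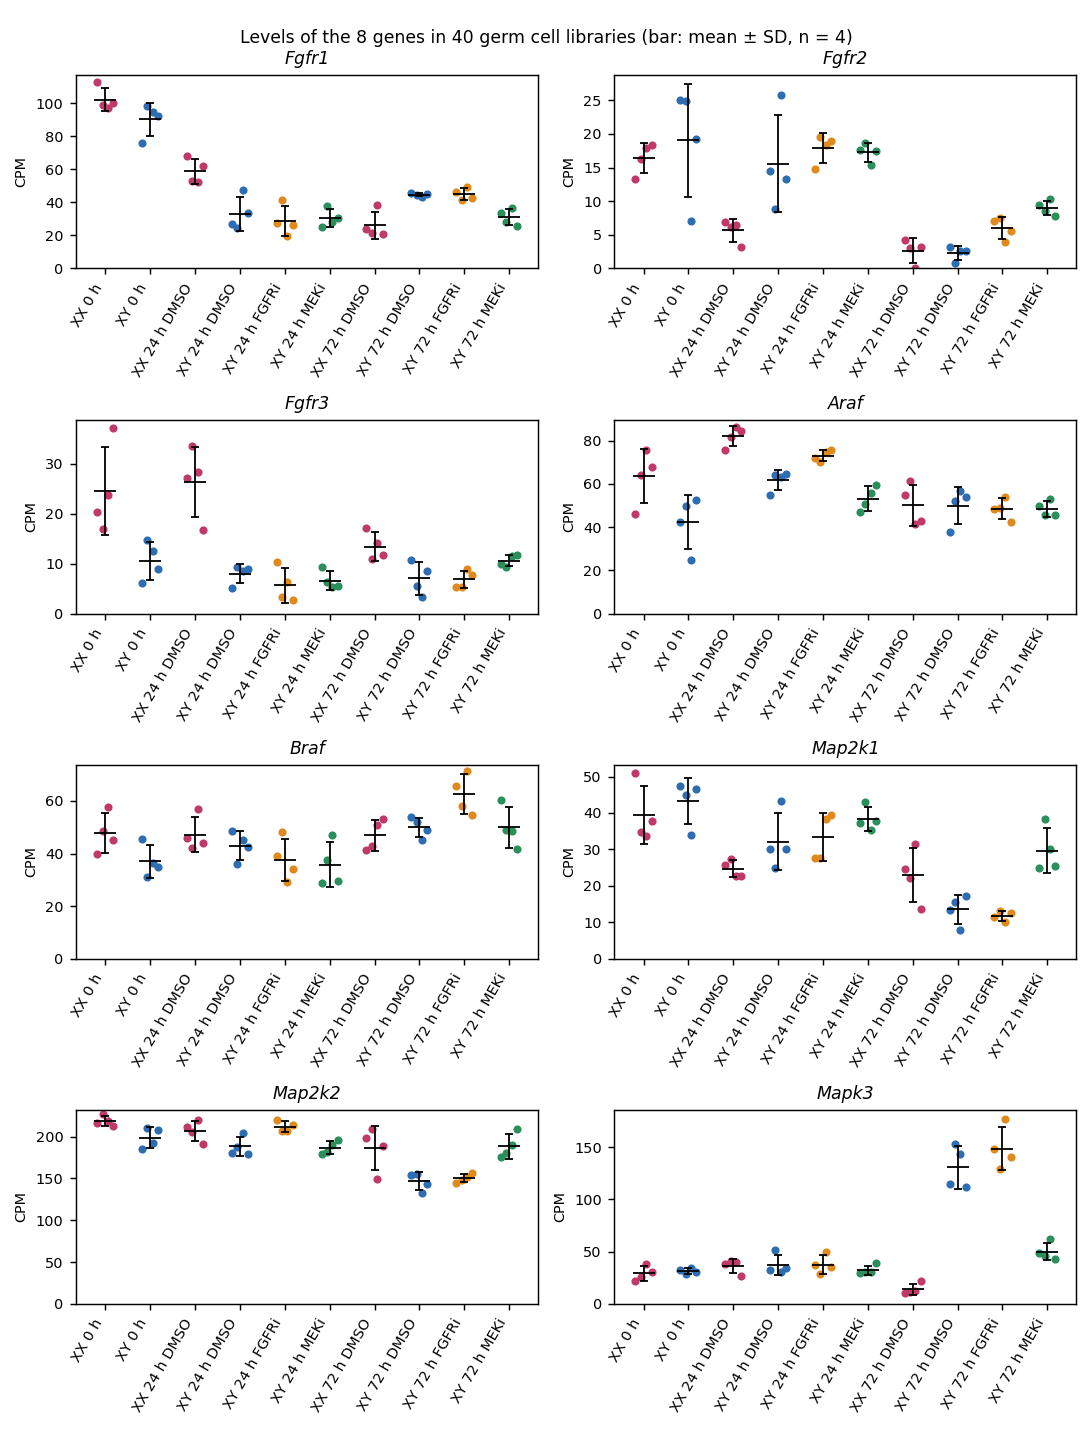
Level (CPM) of the 8 genes in each of the 40 libraries, by group, with the mean and SD of 4 libraries as a bar. Mapk3 stands highest in XY 72 h DMSO and FGFRi, at 111 to 177 CPM, and Fgfr1 is highest at 0 h in both sexes.

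Fgfr1 (ENSMUSG00000031565, GRCm39 chromosome 8, 26003670 to 26066824, plus strand) encodes the receptor that FGF2 and many other FGFs use. Its level fell in culture in both sexes. It measured 97.0, 98.9, 100.04 and 113 CPM in the XX 0 h libraries and 75.9, 92.5, 94.5 and 98.6 CPM in the XY 0 h libraries, and these groups overlapped. After 24 h in DMSO it measured 24.5, 27.0, 33.3 and 47.4 CPM in XY and 52.0, 52.9, 61.9 and 68.1 CPM in XX germ cells. Every XY library at 24 h lay below every XX library, and both groups lay below 0 h. In XY germ cells the change from 0 h to 24 h was a log2 fold change of -1.47 (SE 0.149), with a limma FDR of 2.35e-05. Fgfr1 was the 1 of 8 members called in this comparison, in which 2.94% of all genes were called. The change in XX germ cells, -0.76 (SE 0.131), was not called (limma FDR 0.745), nor was the difference between XY and XX at 24 h, -0.85 (SE 0.161, limma FDR 0.303). Some markers of other cells were also lower in XY at 24 h than at 0 h, and others were higher. The 5 interstitial and mesenchymal markers (none at 0 in either group) summed to 32.5 to 99.8 CPM at 0 h and 17.0 to 26.5 CPM at 24 h, and the 5 foetal Leydig cell markers, with Insl3 at 0, to 17.2 to 26.7 CPM and 6.53 to 12.96 CPM. The 5 pre-granulosa cell markers went the other way, from sums of 10.1 to 16.9 CPM at 0 h to 21.7 to 34.7 CPM at 24 h. The remaining lists overlapped between these groups. The part of these markers in the Fgfr1 result was not tested.

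By 72 h Fgfr1 measured 20.7, 21.7, 24.1 and 38.1 CPM in XX DMSO and 43.3, 44.7, 45.1 and 45.7 CPM in XY DMSO libraries. The order of the sexes was thus the opposite of that at 24 h, and the groups again did not overlap. From 0 h to 72 h Fgfr1 fell in XX germ cells by 2.06 on the log2 scale (SE 0.179, limma FDR 3.54e-10) and in XY germ cells by 1.02 (SE 0.140, limma FDR 0.00549). The XY call was lost with DESeq2 (log2 fold change -0.92, FDR 0.141) and with no scaling factors (-0.90, FDR 0.0525). The difference between the sexes at 72 h, 0.90 (SE 0.195), missed the threshold (limma FDR 0.126). In XX germ cells from 0 h to 72 h, foetal Leydig cell marker sums rose from 8.39 to 10.4 CPM to 23.4 to 32.1 CPM. Interstitial and mesenchymal markers rose from 12.5 to 37.1 CPM to 42.8 to 80.9 CPM. Blood cell and macrophage markers fell from 32.9 to 49.6 CPM to 20.1 to 27.8 CPM. Pax2 and Pax8 fell from 1.67 to 6.99 CPM to 0 to 1.29 CPM. The other lists overlapped. The part of these sums in the Fgfr1 and Fgfr2 results was not tested.

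Fgfr2 (ENSMUSG00000030849, GRCm39 chromosome 7, 129763471 to 132725079, minus strand) encodes a second receptor, whose epithelial and mesenchymal splice forms bind different FGFs. It was a low-count gene, with 1121 counts in all libraries together. The annotation holds a read-through transcript that joins Fgfr2 and the gene Ctbp2 on the same strand, so the counts of Fgfr2 and Ctbp2 may not be fully separated. The 250 bases before the RefSeq start of Fgfr2, and those of Map2k1, are shown because these were the members higher with 72 h MEKi. They come from RefSeq on GRCm38.p6 and are written 5′ to 3′ on the gene's strand, at chr7:130266809-130267058 for Fgfr2 and chr9:64253606-64253855 for Map2k1, both on the minus strand. The Fgfr2 window lies inside the span given above for the gene, which reaches further upstream, although the builds differ. Capitals mark the GC box GGGCGG on either strand.
Fgfr2: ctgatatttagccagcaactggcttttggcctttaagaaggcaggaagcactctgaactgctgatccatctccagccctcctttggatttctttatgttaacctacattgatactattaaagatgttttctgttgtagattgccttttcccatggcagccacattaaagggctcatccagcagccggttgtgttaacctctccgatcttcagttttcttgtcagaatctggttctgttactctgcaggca
Map2k1: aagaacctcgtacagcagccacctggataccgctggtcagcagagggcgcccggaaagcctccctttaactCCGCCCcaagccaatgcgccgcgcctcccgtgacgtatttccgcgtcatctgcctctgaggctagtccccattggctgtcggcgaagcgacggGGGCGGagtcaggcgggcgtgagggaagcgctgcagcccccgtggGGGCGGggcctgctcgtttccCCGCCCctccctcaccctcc
The Map2k1 window held 4 GC boxes at 68.4% GC and the Fgfr2 window none at 44% GC, and 32.7% of all 32851 windows of this length held at least 1. Windows were found for 6 of the 8 members. No match of the CRE TGACGTCA, the ETS motif CCGGAAGT or the AP-1 motif TGANTCA was found in the Fgfr2 and Map2k1 windows on either strand, and 1.55%, 2.88% and 6.75% of all windows held one.

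At 0 h Fgfr2 measured 13.3, 16.2, 17.8 and 18.4 CPM in XX and 7.13, 19.2, 24.9 and 25.009 CPM in XY germ cells, with overlapping groups. It measured 3.19, 6.14, 6.44 and 6.85 CPM in XX and 8.86, 13.3, 14.5 and 25.8 CPM in XY 24 h DMSO libraries, and here every XX library was the lower. The drop in XX germ cells from 0 h to 24 h was -1.68 on the log2 scale (SE 0.356, limma FDR 0.0494). Fgfr2 was the 1 of 8 members called there, against 3.23% of all genes. This call was marginal. It was lost when any 1 of 7 of the 8 libraries was left out, with FDR values from 0.0652 to 0.302, namely XX 0 h replicates 3, 4 and 5 and XX 24 h DMSO replicates 4, 5, 6 and 9. It was also lost with no filter (FDR 0.0607), no quality weights (0.0718), no scaling factors (0.0659) or the replicate block (FDR 1). The difference between the sexes at 24 h was 1.46 (SE 0.368) and was not called by limma (FDR 0.0912). It passed without XY 24 h DMSO replicate 3 (1.59, limma FDR 0.0488), with edgeR (FDR 0.00694) and with DESeq2 (FDR 0.0494).

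By 72 h Fgfr2 was close to the limit of detection in DMSO. It measured 0.836, 2.65, 2.66 and 3.13 CPM in XY and 0, 3.10, 3.23 and 4.28 CPM in XX germ cells, and the sexes overlapped. The XX library at 0 (replicate 7) allows up to 2.01 CPM by the limit of 3 counts, which covers counting error only. From 0 h to 72 h Fgfr2 fell by 3.11 on the log2 scale in XY (SE 0.454, limma FDR 3.58e-06) and by 2.70 in XX germ cells (SE 0.483, limma FDR 0.000136). The XX call was lost with the replicate block (-2.45, limma FDR 0.0628).

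Fgfr3 (ENSMUSG00000054252, GRCm39 chromosome 5, 33879018 to 33894412, plus strand), a receptor best known for restraining bone growth, was lower in the XY libraries at 24 h. At 0 h it measured 17.0, 20.3, 23.7 and 37.1 CPM in XX and 6.14, 9.01, 12.5 and 14.8 CPM in XY libraries. At 24 h in DMSO it measured 16.8, 27.1, 28.2 and 33.6 CPM in XX and 5.18, 8.60, 8.93 and 9.38 CPM in XY libraries. All XX libraries lay above all XY libraries at both times. At 24 h the log2 fold change of XY over XX was -1.61 (SE 0.304, limma FDR 0.0101). Fgfr3 was the only 1 of 8 members called, against 9.99% of all genes. Its call was lost with the replicate block (-1.55, limma FDR 0.0627). At 0 h the difference was -1.21 (SE 0.259) and missed the threshold (limma FDR 0.189). No member was called between the sexes at 0 h, against 3.0% of all genes, and Fgfr3 was the only member with an unadjusted p under 0.05 there (0.00908). At 72 h the groups, at 10.8 to 17.1 CPM in XX and 3.33 to 10.7 CPM in XY, still did not overlap, but the difference of -0.95 (SE 0.383) was not called (limma FDR 0.322). The 5 pre-granulosa cell markers (Foxl2, Fst, Irx3, Rspo1 and Wnt4, none at 0 in any group) stood in the same order, with sums of 32.6 to 52.5 CPM in XX and 10.1 to 16.9 CPM in XY at 0 h, 39.7 to 55.7 and 21.7 to 34.7 CPM at 24 h in DMSO, and 44.0 to 72.8 and 29.2 to 34.7 CPM at 72 h. Of these, Irx3 may also be made by germ cells, so the sums need not stand for pre-granulosa cells alone. The part of these markers in the Fgfr3 result was not tested.

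The shares of the FGF receptor counts that fell to each gene put these values on 1 scale within a library. Fgfr1 held 71.4% ± 5.41 in XX and 75.4% ± 5.58 in XY germ cells at 0 h, and 61.3% ± 8.53 and 83.1% ± 5.61 after 72 h in DMSO. Fgfr3 held 31.9% ± 4.50 in XX and 12.7% ± 4.99 in XY 72 h DMSO libraries. Fgfr4, the fourth receptor, was nearly absent, with 12 counts in all 40 libraries. The klotho co-receptors of endocrine FGFs were as low, with 13 counts for Kl and 47 for Klb.

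The RAF genes varied little. Braf (ENSMUSG00000002413, GRCm39 chromosome 6, 39579870 to 39702629, minus strand) encodes the RAF kinase with the highest activity towards MEK. Its group means ran from 35.8 CPM in XY 24 h MEKi to 62.5 ± 7.58 CPM in XY 72 h FGFRi. Araf (ENSMUSG00000001127, GRCm39 chromosome X, 20664012 to 20726772, plus strand) encodes a RAF kinase of low activity. Its group means ran from 42.3 ± 12.4 CPM in XY 0 h to 82.0 ± 4.60 CPM in XX 24 h DMSO. Neither was called in any comparison. The highest Araf level stood in XX 24 h DMSO at 75.6 to 86.2 CPM, against 55.0 to 64.7 CPM in XY 24 h DMSO, and these groups did not overlap.

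Because Araf is X-linked, its difference between the sexes was set beside that of the 635 X-linked genes tested. At 0 h the log2 fold change of XY over XX was -0.57 for Araf and had a median of -0.24 over X-linked genes, of which 29.1% lay below Araf. At 24 h it was -0.40 for Araf and -0.31 for the median, with 45.5% below. By 72 h the values were -0.07 and -0.11, with 51.0% below. Araf lay between the quartiles of the X-linked genes at each time.

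Map2k1 (ENSMUSG00000004936, GRCm39 chromosome 9, 64093048 to 64160992, minus strand) encodes MEK1, and Map2k2 (ENSMUSG00000035027, GRCm39 chromosome 10, 80941723 to 80969809, plus strand) encodes MEK2, the targets of the MEK inhibitor. Map2k1 fell in XY germ cells in culture. It measured 33.9, 44.9, 46.6 and 47.4 CPM in XY 0 h and 7.99, 13.4, 15.5 and 17.3 CPM in XY 72 h DMSO libraries, with no overlap. The log2 fold change was -1.72 (SE 0.217, limma FDR 1.03e-05). In XX germ cells Map2k1 measured 33.7, 34.8, 37.9 and 51.1 CPM at 0 h and 13.6, 22.2, 24.6 and 31.4 CPM at 72 h, also without overlap. That difference, -0.81 (SE 0.198), was not called (limma FDR 0.263), and the difference between the sexes at 72 h, -0.65 (SE 0.254), was not called either (limma FDR 0.632).

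Map2k2 was steadier. Its group means ran from 147 ± 10.5 CPM in XY 72 h DMSO to 218 ± 6.33 CPM in XX 0 h, and it was called in no comparison. The share of Map2k1 in the counts of both MEK genes was 17.8% ± 2.24 in XY 0 h and 8.36% ± 2.13 in XY 72 h DMSO libraries, and those groups did not overlap.

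**Figure D2:**
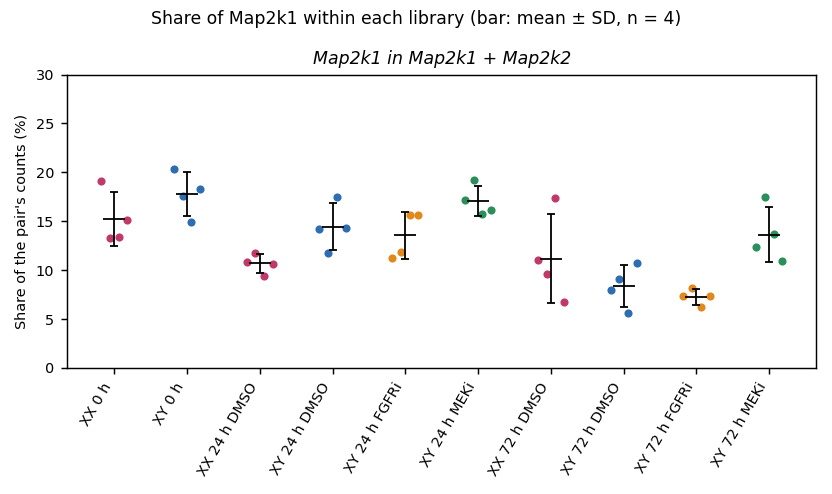
Share of Map2k1 in the counts of Map2k1 and Map2k2, in percent, for each library (points), with the mean and SD of 4 libraries. The share lies between 15.0% and 20.4% in XY 0 h libraries and between 5.66% and 10.7% in XY 72 h DMSO libraries, and between 10.9% and 17.5% with 72 h MEKi.

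Mapk3 (ENSMUSG00000063065, GRCm39 chromosome 7, 126358723 to 126364991, plus strand) encodes ERK1, the last kinase of the chain, and it gave the clearest difference between the sexes. It measured 28.3, 31.0, 32.9 and 34.8 CPM in XY 0 h and 22.4, 25.5, 30.7 and 38.0 CPM in XX 0 h libraries, and these overlapped. After 72 h in DMSO it measured 111, 115, 143 and 153 CPM in XY and 10.7, 11.4, 12.7 and 22.0 CPM in XX libraries. The XY libraries had moved above and the XX libraries below every library at 0 h. The log2 fold change of XY over XX at 72 h was 3.21 (SE 0.245, limma FDR 1.17e-13). Mapk3 was the only 1 of 8 members called, against 41.0% of all genes. The difference between the sexes grew by 3.19 on the log2 scale (SE 0.306) from 0 h to 72 h (limma FDR 5.33e-10), and 1 of 8 members was called here too, against 28.9% of all genes. Each sex difference in it was taken within a pool. For Fgfr1 the same quantity was 1.03 and missed the threshold (limma FDR 0.0821). It passed without XX 72 h DMSO replicate 7 (1.14, limma FDR 0.0432) and with no scaling factors (1.17, limma FDR 0.0343).

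The rise of Mapk3 from 0 h to 72 h in XY germ cells was 2.07 on the log2 scale (SE 0.160, limma FDR 1.60e-11). Over the same time the mesonephric markers Pax2 and Pax8 went from sums of 1.18 to 4.41 CPM to 17.6 to 18.6 CPM. The 5 endothelial markers went from 5.88 to 17.1 CPM to 20.1 to 22.0 CPM. The 5 pre-granulosa cell markers went from 10.1 to 16.9 CPM to 29.2 to 34.7 CPM. The remaining lists of other cells overlapped, as did the sum over all 37 markers, at means of 312 and 235 CPM. The part of these markers in the rise was not tested. In this comparison 4 of 8 members were called, Fgfr1, Fgfr2 and Map2k1 lower and Mapk3 higher, against 35.5% of all genes. In XX germ cells 2 of 8 were called, Fgfr1 and Fgfr2, both lower, against 37.2% of all genes. Mapk3 in XX germ cells, at -1.12 (SE 0.261), narrowly missed the threshold (limma FDR 0.0584). It passed without XX 0 h replicate 2 (limma FDR 0.0369), without XX 0 h replicate 3 (0.0376) and without XX 72 h DMSO replicate 8 (0.0216). At 24 h Mapk3 did not separate the sexes, with 30.9 to 51.6 CPM in XY and 26.3 to 40.7 CPM in XX DMSO libraries and a log2 fold change of 0.01 (95% interval -0.37 to 0.39).

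**Figure D3:**
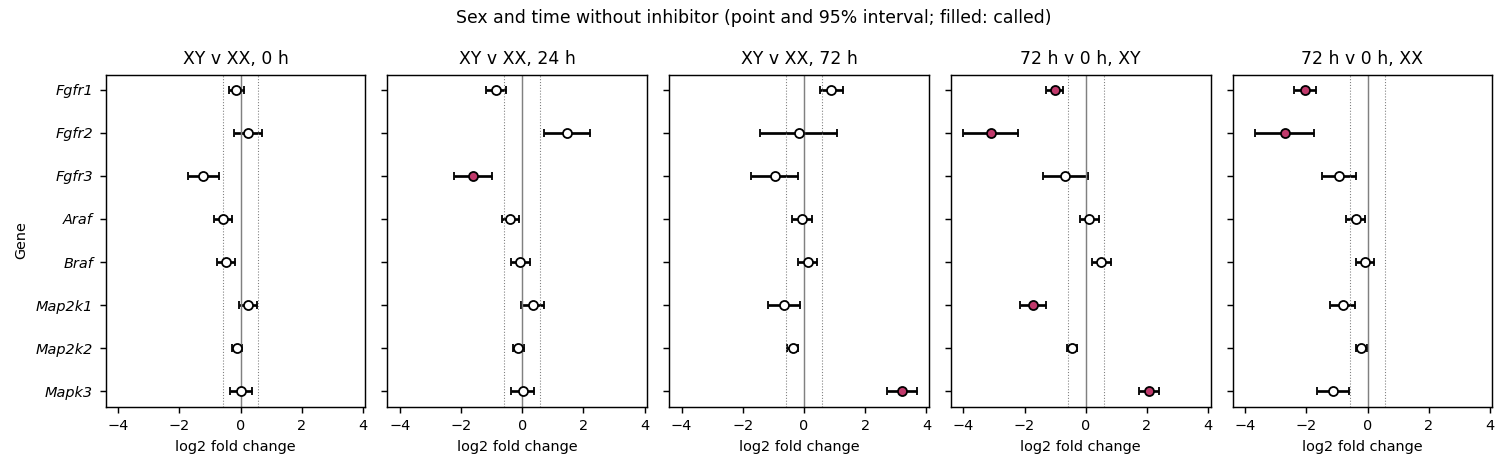
Log2 fold change of the 8 genes (point) with its 95% interval (bar) for XY over XX at 0 h, 24 h and 72 h without inhibitor and for 72 h over 0 h in each sex. Filled points passed limma's treat test, and dotted lines mark a fold of 1.5. Mapk3 stands at 3.21 between the sexes at 72 h, and Fgfr1 and Fgfr2 lie below 0 in both sexes over time.

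The effect of the inhibitors on mRNA of the 8 genes was then compared with DMSO at the same time. At 24 h no member was called with either. With FGFRi 0.262% of all genes were called, and the 95% intervals of the 8 log2 fold changes ran from -1.58 to 0.85. With MEKi 0.164% of all genes were called, and the intervals ran from -1.04 to 0.76. The 9 markers of blood cells and macrophages, mostly globin genes, summed to 180 to 486 CPM in the XY 24 h MEKi libraries, above the 38.5 to 132 CPM of XY 24 h DMSO. Those libraries also enter the change of the MEKi effect from 24 h to 72 h, and the part of the markers was not tested. No member had an unadjusted p under 0.05 in either comparison. Mapk3 measured 28.5 to 49.4 CPM with FGFRi and 29.7 to 38.9 CPM with MEKi, both overlapping the DMSO libraries at 30.9 to 51.6 CPM.

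With 72 h MEKi Mapk3 was lower and Map2k1 and Fgfr2 were higher than in DMSO. In this comparison 3 of 8 members were called, against 9.12% of all genes. Mapk3 measured 42.7, 46.2, 49.1 and 62.0 CPM with MEKi, below every XY 72 h DMSO library and above every XX 72 h DMSO library. Its log2 fold change from XY DMSO was -1.31 (SE 0.130, limma FDR 2.46e-05), and the call held in each of the 10 other settings and without any 1 library. Against XX 72 h DMSO Mapk3 remained 1.89 higher on the log2 scale (SE 0.247, limma FDR 1.26e-05). In that comparison 2 of 8 members were called, Mapk3 and Fgfr2, against 30.0% of all genes.

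Map2k1 measured 24.8, 25.5, 30.1 and 38.3 CPM with 72 h MEKi, above the highest XY DMSO library of 17.3 CPM. Its log2 fold change was 1.19 (SE 0.214, limma FDR 0.0379). The call was sensitive to the setting and was kept in 4 of the 10 other settings. It was also lost without XY 72 h DMSO replicates 2 (FDR 0.104), 4 (0.0510) and 5 (0.224), and without MEKi replicates 3 (0.169) and 4 (0.0995), at log2 fold changes of 1.00 to 1.28. Map2k2 moved less, from 133 to 155 CPM in DMSO to 175 to 208 CPM with MEKi. Those groups did not overlap, but the log2 fold change of 0.36 (SE 0.0829) lay under the fold tested and was not called (limma FDR 1).

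Fgfr2 measured 7.84, 8.59, 9.43 and 10.3 CPM with 72 h MEKi, above the highest XY DMSO library of 3.13 CPM and the highest XX DMSO library of 4.28 CPM. Its log2 fold change was 2.00 (SE 0.457, limma FDR 0.0213) from XY DMSO and 1.82 (SE 0.489, limma FDR 0.0269) from XX DMSO. The first call was lost without XY DMSO replicate 4 (log2 fold change 1.57, FDR 0.182), without MEKi replicate 4 (1.89, FDR 0.0623) and with low-count genes left in (1.99, FDR 0.0824). The second was lost without XX DMSO replicate 7 (1.31, FDR 0.148) or 8 (1.93, FDR 0.0504) and without MEKi replicate 4 (1.72, FDR 0.0623), and with the replicate block (1.91, FDR 0.0732). Ctbp2, the gene that shares the read-through transcript, measured 14.7 ± 1.73 CPM in XY DMSO and 24.4 ± 5.55 CPM with MEKi. Its part in the Fgfr2 counts was not tested.

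The other receptors and RAF genes were not called with 72 h MEKi. Fgfr1 measured 25.9, 28.3, 33.7 and 36.7 CPM, below every DMSO library, with a log2 fold change of -0.49 (SE 0.149, limma FDR 1). Fgfr3 measured 9.31 to 11.8 CPM and overlapped DMSO. Among the FGF receptor counts the share of Fgfr1 was 60.9% ± 2.97 with MEKi, against 83.1% ± 5.61 in DMSO, and that of Fgfr2 was 17.8% ± 0.478 against 4.25% ± 1.77.

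FGFRi at 72 h gave no call among the 8 members, against 0.00656% of all genes. Mapk3 measured 129, 141, 148 and 177 CPM with FGFRi and overlapped DMSO, with a log2 fold change of 0.17 (95% interval -0.07 to 0.41). Map2k1 measured 10.1 to 13.1 CPM, within the DMSO range, with a log2 fold change of -0.16 (95% interval -0.65 to 0.32). Fgfr2 measured 3.87, 5.60, 7.11 and 7.57 CPM with FGFRi, above every DMSO library. Its log2 fold change was 1.49 (SE 0.478), the only member with an unadjusted p under 0.05 (0.0317, limma FDR 1). Braf measured 54.7 to 71.5 CPM with FGFRi against 45.3 to 53.7 CPM in DMSO and did not overlap, at a log2 fold change of 0.31 (SE 0.133, limma FDR 1).

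The inhibitors were compared with each other at 72 h, at the same dose, in the same pool. In this comparison 2 of 8 members were called, against 12.7% of all genes. With MEKi Map2k1 was higher by 1.36 on the log2 scale (SE 0.180, limma FDR 0.000742), and Mapk3 was lower by 1.48 (-1.48, SE 0.125, limma FDR 1.02e-07). The libraries of the pair of groups did not overlap for either gene. For Fgfr2 the difference was 0.51 (95% interval -0.06 to 1.08), and for Fgfr1 it was -0.48 (95% interval -0.76 to -0.21), neither called. Because both inhibitor comparisons with DMSO use the same 4 DMSO libraries, this direct comparison is the one that sets them apart.

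Whether MEKi acted differently at 72 h than at 24 h was tested as the difference of both effects. No member was called, against 1.88% of all genes. The largest differences were 1.77 for Fgfr2 (SE 0.526, limma FDR 0.270) and -1.19 for Mapk3 (SE 0.232, limma FDR 0.159), with unadjusted p of 0.0145 and 0.00584. For Mapk3 the effect was -0.12 at 24 h and -1.31 at 72 h, and for Map2k1 it was 0.27 and 1.19.

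**Figure D4:**
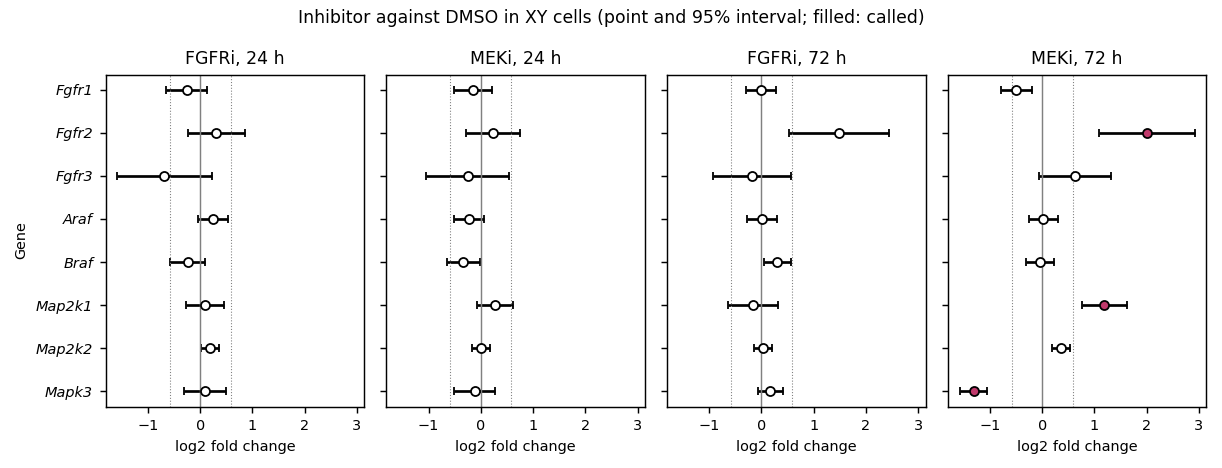
Log2 fold change of the 8 genes (point) with its 95% interval (bar) for FGFRi and MEKi against DMSO at 24 h and 72 h in XY germ cells. Dotted lines mark a fold of 1.5. Filled points passed limma's treat test, and the calls at 72 h are Fgfr2, Map2k1 and Mapk3 with MEKi and none with FGFRi.

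Markers of some other cell types moved with the 72 h MEKi result. The 5 endothelial markers (Cdh5, Emcn, Kdr, Plvap and Tek) summed to 20.1 to 22.0 CPM in XY DMSO, 17.4 to 22.8 CPM in FGFRi, 3.97 to 10.1 CPM in MEKi and 2.68 to 9.06 CPM in XX DMSO libraries. The mesonephric markers Pax2 and Pax8 summed to 17.6 to 18.6, 16.7 to 25.003, 4.30 to 6.27 and 0 to 1.29 CPM in the same order. Nearly all of the latter was Pax8, at 17.9 ± 0.536 CPM in XY DMSO, while Pax2 was at 0.224 ± 0.448 CPM, and the endothelial marker Emcn was at 0.224 ± 0.448 CPM as well. Within each of these sums the order of the groups was that of Mapk3, with FGFRi and XY DMSO above MEKi and MEKi above or overlapping XX DMSO. The 6 Sertoli cell markers (Aard, Amh, Cst9, Dhh, Fgf9 and Sox9) had a higher mean sum with MEKi than in XY DMSO but overlapped, with sums of 19.3 to 34.9 CPM in XY DMSO, 23.5 to 42.6 CPM in FGFRi, 33.3 to 87.6 CPM in MEKi and 36.8 to 58.3 CPM in XX DMSO libraries. Aard alone was at 4.33 ± 2.55 CPM in XY DMSO and 21.1 ± 11.4 CPM with MEKi, while Fgf9 was at 3.496 ± 1.10 CPM in XY DMSO and 1.61 ± 1.45 CPM with MEKi and, at 23.9 ± 4.39 CPM, made up much of the XX DMSO sum (mean 45.4 CPM). Amh was at 0 in FGFRi and XX DMSO libraries. The 5 foetal Leydig cell markers (Cyp11a1, Cyp17a1, Hsd3b1, Insl3 and Star) summed to 16.7 to 28.0 CPM in XY DMSO, 12.9 to 17.1 CPM in FGFRi, 9.01 to 16.8 CPM in MEKi and 23.4 to 32.1 CPM in XX DMSO libraries, with Insl3 at 0 in all 4 groups. Their sums were thus low with both inhibitors and did not stand in the order of Mapk3. The remaining lists also overlapped between XY DMSO and MEKi, at 50.6 to 83.2 and 45.6 to 90.1 CPM for interstitial and mesenchymal cells (33.6 to 39.3 CPM with FGFRi), 28.6 to 83.6 and 13.9 to 36.9 CPM for blood cells and macrophages, and 29.2 to 34.7 and 32.5 to 44.9 CPM for pre-granulosa cells. The part of these cell types in the Mapk3, Fgfr2 and Map2k1 results was not tested.

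The rest of the pathway was described from 41 further genes in lists of receptors and ligand partners, adaptors, RAS proteins and the GTPase activators that switch them off, another RAF kinase, scaffolds and modulators, kinases under ERK and FGF ligands. Of these 31 were tested. Between the sexes 1 of the 31 was called at 0 h, against 3.0% of all genes, and that was Cnksr1, a scaffold of RAF signalling (lower in XY). At 24 h 1 of the 31 was called, against 9.99% of all genes, and that was Sos2, a RAS exchange factor (lower in XY). At 24 h Sos2 measured 12.1 ± 3.19 CPM in XY and 38.0 ± 7.65 CPM in XX libraries (log2 fold change -1.69, SE 0.207, limma FDR 4.25e-05). The Cnksr1 call, at 4.40 ± 1.44 CPM in XX and 1.00 ± 1.48 CPM in XY 0 h libraries, was lost without XX replicate 2 or 5 or XY replicate 2 or 3 (limma FDR 0.0611 to 0.837), and with edgeR (FDR 0.130), DESeq2 (0.425), no filter (0.583), no quality weights (0.0615) or the replicate block (0.538).

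At 72 h 12 of the 31 were called between XY and XX, 7 higher and 5 lower in XY, against 22.8% and 18.1% of all genes, a share near that of all genes (41.0%). The median log2 fold change over the 31 was 0.11, and 0.10 over all genes. The higher genes included Nras, a RAS gene, at 141 ± 18.3 against 54.6 ± 13.4 CPM, the RAF scaffolds Ksr1 and Ksr2 and the RAF inhibitor Pebp1 at 191 ± 19.1 against 99.8 ± 13.5 CPM. The lower genes included Sos2 (a call lost with the replicate block, FDR 0.223) and the RAS GTPase activators Nf1 and Rasa1. Among the ligands Fgf9 measured 23.9 ± 4.39 CPM in XX and 3.496 ± 1.10 CPM in XY 72 h DMSO libraries (log2 fold change -2.73, SE 0.423, limma FDR 1.50e-05). Fgf8 measured 8.24 ± 0.880 CPM in XY and 1.98 ± 1.41 CPM in XX (2.40, SE 0.562, limma FDR 0.00351), a call lost without XX replicate 4 (1.46, limma FDR 0.103). The Ksr1 call (limma FDR 0.0484) was lost without XX replicate 4, 8 or 11 or XY replicate 2, 4 or 5 (limma FDR 0.0617 to 0.158), and in 6 of the 10 other settings (FDR 0.0526 to 0.436).

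With 72 h MEKi 1 of the 31 was called, against 9.12% of all genes. Cnksr1 averaged 2.03 ± 1.51 CPM with the inhibitor, against 8.66 ± 1.62 CPM without it (log2 fold change -2.04, SE 0.481, limma FDR 0.0250). That call was lost without DMSO replicate 5 (limma FDR 0.0603) or MEKi replicate 2 (0.0873) or 5 (0.0563), and with DESeq2 (FDR 0.0676), no filter (0.179) or the replicate block (0.0765). The median over the 31 was -0.06, against 0.01 over all genes. No gene of the 31 was called with FGFRi at either time or with MEKi at 24 h. Between the inhibitors at 72 h Ksr2 and Fgf8 were lower with MEKi, at 6.21 ± 1.57 against 15.9 ± 4.39 CPM and 4.37 ± 1.27 against 11.6 ± 2.18 CPM. The Ksr2 call was lost without FGFRi replicate 2 (limma FDR 0.124), and that of Fgf8 without FGFRi replicate 2 or 5 or MEKi replicate 3 or 4 (limma FDR 0.0652 to 0.272). Both were also lost with DESeq2 (FDR 0.0590 for Ksr2 and 0.188 for Fgf8) and with no filter (0.149 and 0.483), and Fgf8 with the replicate block (0.206). The RAS gene Hras had a log2 fold change with MEKi of 0.57 (SE 0.124) and was not called.

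**Figure D5:**
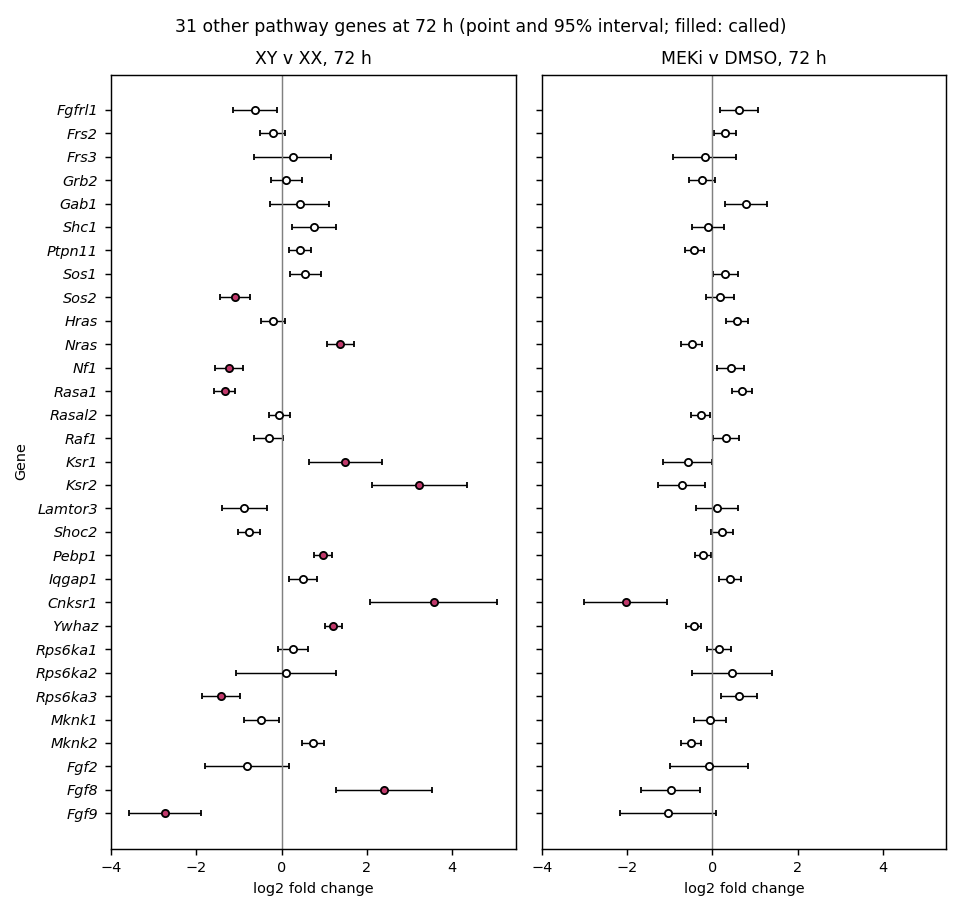
Log2 fold change of the 31 other pathway genes tested (point) with its 95% interval (bar) at 72 h, for XY over XX in DMSO (left) and for MEKi over DMSO in XY germ cells (right). Filled points passed limma's treat test, 7 above and 5 below 0 on the left, and Cnksr1 alone on the right.

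The genes whose group means were most like those of a called member were taken by the highest Pearson r of mean log2 CPM over the 10 groups, among 15011 genes. These groups share pools and sexes, so the r values are descriptions. For Mapk3 they were Ehmt2 (r = 0.990), Clpb (0.989) and Zbtb43 (0.987). For Map2k1 they were Ier2 (0.984), Twf1 (0.982) and Nucks1 (0.979), for Fgfr1 Itpr3 (0.965), Adamts7 (0.959) and Atmin (0.949), for Fgfr2 Gm12115 (0.983), Mov10 (0.979) and Nme-ps1 (0.968), and for Fgfr3 Pcsk6 (0.969), Oip5os1 (0.962) and Msx1 (0.961).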

How the data were processed

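RNA of sorted germ cells was measured in 40 libraries held by 2 pooled sequencing samples, and each library was put in its group by its name in the labels. The authors deposited whole-number counts per gene. Per their methods, molecules were tagged with a sample index and a unique molecular identifier at the poly(A) end, demultiplexed and deduplicated with scPipe, aligned with Rsubread to GRCm39, and assigned to GENCODE exons in a strand-aware way. Counts of 1 molecule each do not depend on gene length. No replicate was pooled after sequencing and no pair of libraries was identical.

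Gene symbols came from GENCODE on GRCm39, in which 40391 of 42422 identifiers matched, and the unmatched rows held 1.05% of counts. Genes were filtered with filterByExpr of edgeR 4.0.16 (minimum count 10, minimum total 15), scaled by TMM, and fitted with limma 3.58.1 (voom with sample quality weights, which ran from 0.567 to 1.57) in R 4.3.3, with a mean for each group, all 40 libraries sharing 1 fit, and tested with treat at a fold of 1.5. FDR values are Benjamini-Hochberg adjusted over the 15252 genes tested. A prior count of 2 was used for log2 CPM. Intervals are 95%. The scripts were tested on simulated data. The named genes are the 8 members, the genes of the lists that were called or are highest, and the 3 genes of highest likeness to each called member. The members and lists were chosen with earlier results of these data known. Some genes of the pathway are not reported here.

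The alternatives were edgeR's glmTreat, DESeq2 1.42.0, RLE factors, no filter, eBayes with an observed fold over 1.5, no quality weights, only the groups compared, a replicate block, removal of counts shared between libraries with the same sample index, no scaling factors (added after the data had been seen) and leaving out each library. The samples of 72 h and 0 h, and of FGFRi and DMSO at 24 h, were in different pools. Libraries with the same replicate number did not deviate together in every pair (correlation of deviations from -0.0918 to 0.119), so the numbers were not taken to pair them. Libraries of somatic cells were not used here. Windows before gene starts came from RefSeq on GRCm38.p6, and GENCODE coordinates are of GRCm39.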

Additional observations from a re-analysis of the deposited data

Results flagged for a closer look

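In the 80 groups of 4 libraries (8 genes in 10 groups), 3 held a library set apart from the others by Dixon's test, and chance flags about 5% of groups. All 3 concern Mapk3 at 24 h. XX 24 h DMSO replicate 9 was at 26.3 CPM, where the others were at 38.6 to 40.7 CPM. XY 24 h DMSO replicate 3 was at 51.6 CPM, where the others were at 30.9 to 34.4 CPM. XY 24 h MEKi replicate 6 was at 38.9 CPM, where the others were at 29.7 to 30.7 CPM.

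The difference between the sexes in Mapk3 changed between 0 h and 72 h by 3.19 on the log2 scale, by a test of the difference itself.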

How the results depend on the processing

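Among 120 pairs of member and comparison, 18 were called by the main test, 35 in at least 1 of 11 fits, and 85 in none. Among the 85, 27 changed sign in some setting, at main log2 fold changes of at most 0.411. The number of members called moved in several settings. With eBayes it was 1 in place of 0 between the sexes at 0 h, 3 in place of 1 at 24 h, 4 in place of 1 at 72 h, 2 in place of 1 in XX from 0 h to 24 h, 5 in place of 2 in XX from 0 h to 72 h, 3 in place of 0 for the change of the MEKi effect from 24 h to 72 h, 4 in place of 1 for the change of the sex difference from 0 h to 72 h, and 3 in place of 2 between the inhibitors at 72 h. With edgeR or DESeq2 it was 2 in place of 1 between the sexes at 24 h. With no filter it was 1 in place of 3 for 72 h MEKi and 0 in place of 1 in XX from 0 h to 24 h. With no quality weights or no scaling factors it was 0 in XX from 0 h to 24 h, and with no scaling factors 2 in place of 1 for the change of the sex difference. For 72 h MEKi it was 2 in place of 3 with DESeq2, RLE factors, no quality weights, the replicate block or only the groups compared, each time without Map2k1. In XY from 0 h to 72 h it was 3 in place of 4 with DESeq2 or no scaling factors, without Fgfr1, and in XX it was 3 in place of 2 with edgeR or only the groups compared, with Mapk3 added.

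The replicate block, for replicate numbers that were not shown to pair the libraries, gave 0 members called between the sexes at 24 h and 0 in XX from 0 h to 24 h, 1 in XX from 0 h to 72 h and 1 for MEKi against XX at 72 h. Over all genes it gave 68 calls in place of 493 in XX from 0 h to 24 h and 1224 in place of 1391 for 72 h MEKi. Leaving out 1 library gave 1 to 2 members between the sexes at 24 h, 0 to 1 in XX from 0 h to 24 h, 2 to 3 in XX from 0 h to 72 h, 1 to 3 for 72 h MEKi, 1 to 2 for MEKi against XX and 1 to 2 for the change of the sex difference. Removing counts that libraries with the same sample index may share (a median of 4.02% of counts) changed no call of a member. Over all genes eBayes gave 4748 calls in place of 1391 for 72 h MEKi. Among the single values of members, 16 lost and 22 gained their call in the other settings, as did 17 and 5 with 1 library left out, and 63 and 70 values of pathway genes lost theirs. The cause of these changes was not tested. Scaling with no factors moved the median of all genes by up to 0.217 (MEKi against XX at 72 h). Fgfr2 and Fgfr3, at 1121 and 1203 counts in all, were the members whose depth limits the precision most.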
